A study of Homo sapiens with 9 samples.

Results

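The 9 genes described here are SFXN1, SFXN2, SFXN3 and SFXN4, which encode sideroflexins of the inner mitochondrial membrane, the mitochondrial one-carbon enzymes SHMT2 and MTHFD2, and the serine synthesis enzymes PHGDH, PSAT1 and PSPH. SFXN1 was chosen from its own difference between both forms of miR-376a* in earlier results of these arrays, so its values are given as a description with no test. The other 8 were chosen by function around it. All 9 were measured, among 12505 genes tested and 19775 genes with a probe set of their own. A probe set is a group of short probes read together as 1 signal, and 23 of the 54675 probe sets on the array belonged to these genes alone. Of those 23, 20 passed a filter that kept the brighter part of all probe sets. The 3 that did not were 1 of SFXN2 and 2 of SFXN4.

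The cells were SW1783, an established human glioma line, and each group was 3 biological replicates on 1 array each. The first group received a duplex of miR-376a*A, the unedited or A form, the second a duplex of miR-376a*G, the edited or G form, and the third a control miRNA named miR-control. Every group shared the line, the duplex dose of 50 nM, the reagent Lipofectamine RNAiMAX and a harvest after 24 h, so all values describe 1 line and a miRNA supplied from outside. The study asked which genes each form changes relative to the control duplex, and the forms can also be set directly against each other. In such bulk RNA, fewer cells with a transcript and less transcript per cell cannot be told apart.

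Serine is made from a glycolytic intermediate by PHGDH, PSAT1 and PSPH in turn, or is taken up from the medium. It enters mitochondria through sideroflexins, of which SFXN1 is the best described carrier of serine. Inside, SHMT2 splits serine into glycine and a one-carbon unit on folate, and MTHFD2 oxidises that unit. The one-carbon units are used to build purines and thymidylate, and many tumour cells depend on this route. A miRNA lowers transcripts that pair with its seed, bases 2 to 8 from its 5′ end, and A-to-I editing of miR-376a* changes 1 base in that seed; inosine is read as G, which the G form carries.

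The miR-376a* name refers to the 5′ arm of the miR-376a hairpin, and 2 human loci carry such an arm. Their unedited mature sequences are shown as references for the seed. They are RefSeq entries, and the labels give neither the sequence of the duplexes nor the edited position. hsa-miR-376a-5p comes from MIR376A1 at chr14:101040788-101040809 and hsa-miR-376a-2-5p from MIR376A2 at chr14:101040080-101040100, both on the plus strand of GRCh38.p14. Capitals mark the seed.
hsa-miR-376a-5p: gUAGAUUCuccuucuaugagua
hsa-miR-376a-2-5p: gGUAGAUUuuccuucuauggu
The seeds of these entries, UAGAUUC and GUAGAUU, share a run of letters shifted by 1 base.

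The arrays were of like brightness, with median deposited signals of 18.8 to 24 linear units. Control replicate 1 stood apart. Its highest rank correlation with any other array was 0.941, against 0.969 to 0.97 for the other 8, and its maximum signal was 7191, against 3601 to 4374. Differences of the 9 genes from control, and calls against control, are therefore given with and without it. Of 8 glioma cell markers 4 passed the filter. VIM (2218 to 4401), CD44 (2116 to 3105) and SOX9 (356 to 530.2) were bright and SOX2 was dim (10.3 to 29.5), while the astrocyte markers GFAP (1.3 to 3.75) and S100B (1 to 2.64) were below it. Of 6 markers of other cells, PECAM1 (57.2 to 125) and RBFOX3 (15.9 to 32.5) passed. No marker of either list was past the threshold in any comparison, a limma p of 0.05 adjusted over all genes.

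SFXN1, the mitochondrial serine carrier, was highest with the A form, lower with the control duplex and lowest with the G form at its brightest probe set. This probe set, 230069_at, had signals of 591, 549 and 501 with the A form and 237, 209.6 and 175 with the G form. In control cells the same probe set gave 281, 481 and 461. All 3 G-form arrays lay below every other array, and all 3 A-form arrays lay above every control array. The means were 547 ± 45.2 with the A form, 207 ± 31.2 with the G form and 408 ± 110.2 in control cells (SD, n = 3 each). Control replicate 1 was closer to the G-form arrays than to its own replicates, and the control SD was the widest of the 3.

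On the scale of log2(signal + 16), used for every log2 difference here, SFXN1 differed by 1.34 (SE 0.18) between the A form and the G form, a 2.54-fold higher value with the A form. Against control it was -0.94 (SE 0.18) with the G form, 1.92-fold lower, and 0.40 (SE 0.18) with the A form, 1.32-fold higher. Without control replicate 1 the G form was 2.21-fold below control, at -1.14 (SE 0.12), and the A form 1.15-fold above it, at 0.20 (SE 0.12). Without that array the difference from control was thus larger with the G form and smaller with the A form. Counted from the top of 12505 genes, SFXN1 ranked 12 for the A form against the G form. Counted from the bottom it ranked 53 for the G form against control, and it ranked 809 from the top for the A form against control. The gene was chosen from earlier results of these same arrays, so none of these ranks is support.

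**Figure D1:**
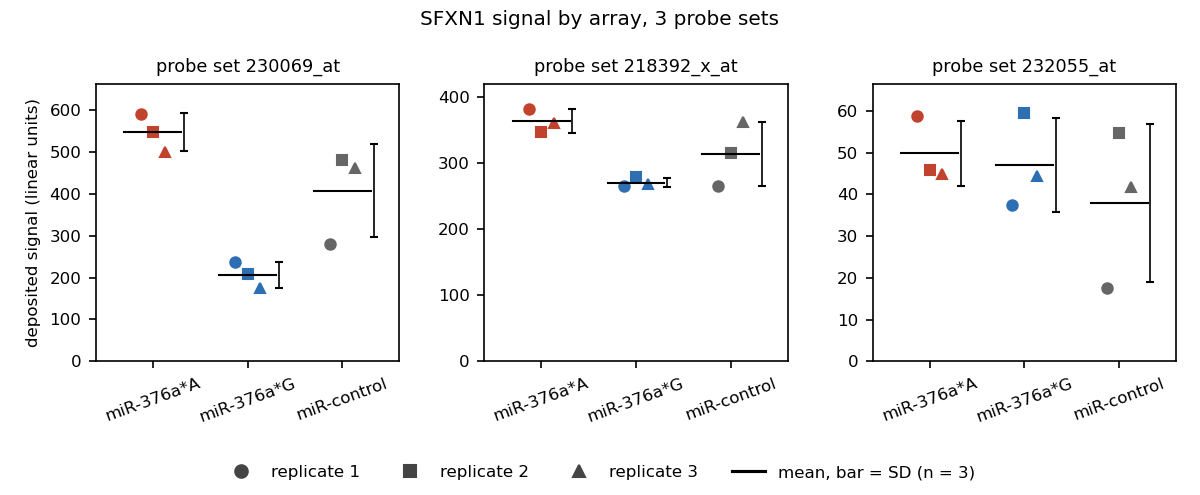
Deposited signal in linear units for the 3 probe sets of SFXN1, by array and group, with the mean and SD of 3 arrays beside the points. In 230069_at the G-form arrays lie between 175 and 237, below the other 6, and in 232055_at the groups overlap.

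The other probe sets of SFXN1 gave smaller differences between the forms. Probe set 218392_x_at had 383, 347 and 361 with the A form, 266, 279 and 269 with the G form, and 265, 315 and 362 in control cells. Both miRNA groups were tight and did not overlap, and the control arrays overlapped both. On the log2 scale it differed by 0.42 (SE 0.11) between the A form and the G form, by -0.23 (SE 0.11) between the G form and control and by 0.19 (SE 0.11) between the A form and control. The dimmest probe set, 232055_at, had 58.8, 45.8 and 44.8 with the A form, 37.5, 59.4 and 44.4 with the G form, and 17.5, 54.7 and 41.7 in control cells. These groups overlapped. Its means were 49.8 ± 7.82 with the A form, 47.1 ± 11.2 with the G form and 38 ± 18.9 in control cells (SD, n = 3 each), so the control group was lowest here and not the G-form group. The log2 difference was 0.07 (SE 0.26) between the forms, 0.42 (SE 0.26) for the A form against control and 0.35 (SE 0.26) for the G form against control. The values against control were, without control replicate 1, 0.08 with the A form and 0.01 with the G form, and for 218392_x_at they were 0.12 and -0.30.

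The gap between both brighter SFXN1 probe sets itself moved with the group. The log2 value of 230069_at minus that of 218392_x_at was 0.62, 0.63 and 0.44 on the A-form arrays, -0.15, -0.39 and -0.57 on the G-form arrays, and 0.08, 0.60 and 0.36 on the control arrays. Its mean was 0.56 ± 0.11 with the A form, -0.37 ± 0.21 with the G form and 0.35 ± 0.26 in control cells (SD, n = 3 each). The 3 G-form arrays were the only ones with a gap below 0, so 230069_at was low relative to 218392_x_at in those cells. The choice of SFXN1 by its difference favours such a gap at its brightest probe set, so the gap is a description. Averaging the gene's probe sets brought the log2 difference between the forms to 0.61 and that between the G form and control to -0.27. Which transcripts each probe set reads was not tested.

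In the fit over all genes, 1 of the 9 genes was past the threshold for the A form against the G form, where 2.63% of all genes were, 1.39% higher and 1.24% lower. For the G form against control it was again 1 of 9, against 4.62% of all genes, 2.5% higher and 2.12% lower. For the A form against control it was 0 of 9 in limma, against 3.33% of all genes, 1.95% higher and 1.38% lower. There 2 of the 9 had an unadjusted p below 0.05, against 14.9% of all genes. The gene past the threshold was SFXN1 in both cases, whose choice used these differences, so nothing is read from those counts. With the G form against control the count was 0 without G-form replicate 2 or replicate 3, and 3 without control replicate 1. Without control replicate 1, 17% of all genes were past the threshold in this comparison. None of the other 8 genes was past the threshold in any comparison with all arrays. Of these 8, 1 had an unadjusted p below 0.05 for the A form against control, 1 for the G form against control and 0 for the A form against the G form. Over all genes the shares with an unadjusted p below 0.05 were 14.9%, 17.8% and 10.7% in these comparisons, so 1 of 8 is near the background; the unadjusted counts of the gene lists are read against the same shares. The median log2 difference of the 9 was 0.11 for the A form against control, 0.01 for the G form against control and 0.03 between the forms, where the medians over all genes were 0.0055, 0.0069 and 0.00042. Tested by probe set, 1 of the 20 was past the threshold for the A form against the G form (1.84% of all probe sets), 1 for the G form against control (3.44%) and 0 for the A form against control (2.49%). The probe set called was the brightest of SFXN1. With the G form against control this count was 0 without G-form replicate 2 or 3 or control replicate 2 or 3, and 4 without control replicate 1. Without control replicate 1 it was 3 for the A form against control and 2 between the forms. In the gene fit without that array 13.3% of all genes were past the threshold for the A form against control. The shares there were 17% for the G form against control and 9.68% between the forms. The share of all probe sets without that array was not computed, so nothing is read from these counts.

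**Figure D2:**
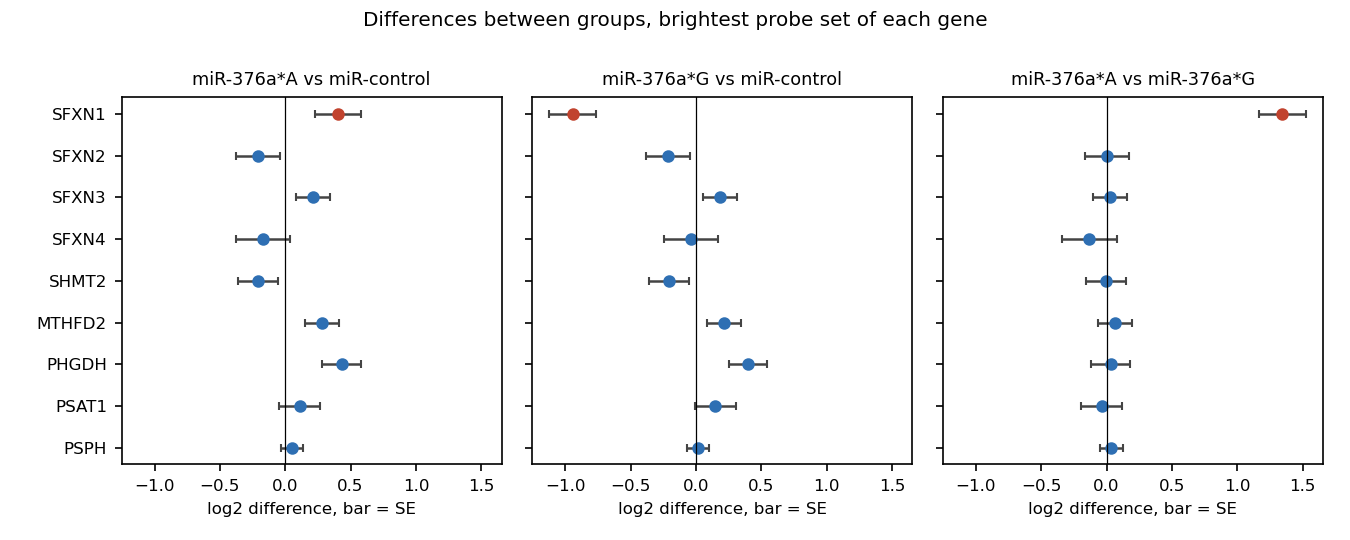
Log2 differences of the 9 genes at their brightest probe set in the 3 comparisons, with bars of 1 SE. SFXN1 is drawn in red because its difference chose it; between the A form and the G form the other 8 lie between -0.13 and 0.07.

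SFXN2, a sideroflexin linked to mitochondrial iron handling, had signals of 108, 88.8 and 99.9 with the A form, 89.5, 105 and 101 with the G form, and 147, 110.1 and 95.7 in control cells. The groups overlapped, and the highest value was that of control replicate 1. Its log2 difference was -0.21 (SE 0.17, limma adjusted p = 0.635) with the A form and -0.21 (SE 0.17, limma adjusted p = 0.565) with the G form against control. Between the forms it was 0.0044, with a 95% interval of -0.37 to 0.38. Without control replicate 1 SFXN2 differed from control by -0.01 with the A form and -0.02 with the G form. Its second probe set was dim, with signals of 2.98 to 9.87.

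SFXN3, a close relative of SFXN1 that also carries serine, had 197, 210.4 and 215 with the A form, 204, 210.1 and 198 with the G form, and 198, 177 and 155 in control cells. Only control replicate 1 reached the level of the miRNA groups. Its log2 difference from control was 0.21 (SE 0.13, limma adjusted p = 0.503) with the A form and 0.18 (SE 0.13, limma adjusted p = 0.515) with the G form, and 0.03 between the forms, with an interval of -0.26 to 0.32. Its other probe sets, 217226_s_at and 1559993_at, gave 0.21 and 0.17 with the A form and 0.23 and 0.18 with the G form. With control replicate 1 left out they gave 0.39 and 0.08 with the A form and 0.42 and 0.10 with the G form. All 3 SFXN3 probe sets thus stood above control in both miRNA groups, and none was past the threshold with all arrays.

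SFXN4, a sideroflexin needed for iron-sulfur cluster formation and respiratory complex assembly, had 136, 137 and 155 with the A form, 169.5, 132 and 179 with the G form, and 223, 138 and 135 in control cells. Again control replicate 1 was the highest of the 9 and the groups overlapped. Its log2 difference was -0.17 (SE 0.21, limma adjusted p = 0.768) with the A form and -0.04 (SE 0.21, limma adjusted p = 0.952) with the G form against control. Between the forms it was -0.13, with an interval of -0.60 to 0.33. Without control replicate 1 the differences from control were 0.09 with the A form and 0.22 with the G form, of opposite sign. A dimmer probe set, 229236_s_at, gave 0.12 and 0.27 against control with the A and the G form, and 0.18 and 0.34 without control replicate 1. The remaining pair read at most 11.1 units. SFXN5, the fifth human sideroflexin and not of the set, differed by 0.04 and -0.10 from control and by 0.14 between the forms, and passed in no comparison; without control replicate 1 it differed from control by 0.09 and -0.05.

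**Figure D3:**
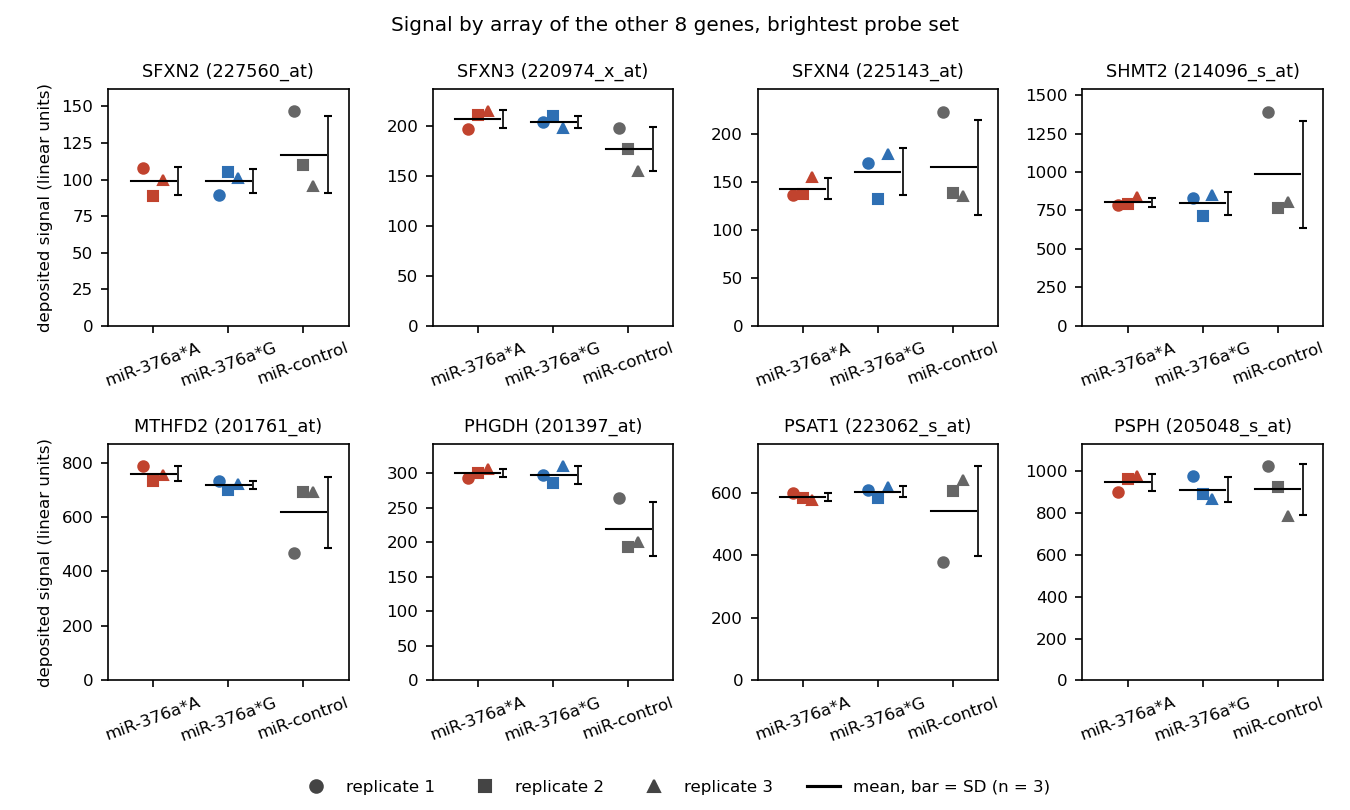
Deposited signal in linear units of the other 8 genes at their brightest probe set, by array and group, with the mean and SD of 3 arrays. Control replicate 1 (grey circle) is the highest array in SFXN2, SFXN4, SHMT2 and PSPH and the lowest in MTHFD2 and PSAT1.

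SHMT2, the mitochondrial serine hydroxymethyltransferase, had signals of 784, 789 and 835 with the A form, 831, 713 and 849 with the G form, and 1388, 768 and 802 in control cells. Outside control replicate 1 the 8 arrays lay within 713 to 849. The log2 difference was -0.21 (SE 0.15, limma adjusted p = 0.593) with the A form and -0.20 (SE 0.15, limma adjusted p = 0.541) with the G form against control, and without control replicate 1 it was -0.0044 and 0.0013. The remaining probe sets, 214095_at and 214437_s_at, gave -0.14 and -0.09 with the A form and -0.09 and -0.08 with the G form. The values without control replicate 1 were -0.04 and 0.12 with the A form and 0.01 and 0.13 with the G form. Between the forms SHMT2 differed by -0.0057, with an interval of -0.35 to 0.34.

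MTHFD2, the enzyme after SHMT2, had 788, 733 and 755 with the A form, 730.5, 700.4 and 721 with the G form, and 466, 692 and 692 in control cells. Here control replicate 1 was the lowest array, and both miRNA groups lay above the control group. Its log2 difference from control was 0.28 (SE 0.13, limma adjusted p = 0.35) with the A form and 0.21 (SE 0.13, limma adjusted p = 0.441) with the G form, and without control replicate 1 it was 0.11 (SE 0.07) and 0.04 (SE 0.07). Between the forms it was 0.07, with an interval of -0.22 to 0.35. A dimmer probe set, 234976_x_at, gave -0.07 and -0.13 against control, of opposite sign to the brighter one, and -0.04 and -0.10 without control replicate 1.

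PHGDH, the first enzyme of serine synthesis, had signals of 294, 301 and 307 with the A form, 298, 286 and 311 with the G form, and 265, 194 and 200.2 in control cells. Every miRNA array lay above every control array on this scale, although after normalization control replicate 1 (8.24 in log2) fell within the G-form arrays (8.22 to 8.32). The means were 301 ± 6.05 with the A form, 298 ± 12.6 with the G form and 219.8 ± 39.4 in control cells (SD, n = 3 each). Its log2 difference from control was 0.43 (SE 0.15, limma adjusted p = 0.186) with the A form and 0.40 (SE 0.15, limma adjusted p = 0.179) with the G form, neither past the threshold with all arrays. Between the forms it was 0.03, with an interval of -0.30 to 0.36. PHGDH had 1 probe set of its own; another that also reads other genes was not used.

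PSAT1, the aminotransferase of the second step, had 600.2, 583 and 577 with the A form, 610.1, 584 and 617 with the G form, and 378, 605 and 642 in control cells. Control replicate 1 alone was low. Its log2 difference from control was 0.11 (SE 0.15, limma adjusted p = 0.808) with the A form and 0.15 (SE 0.15, limma adjusted p = 0.681) with the G form, and both turned below 0 without control replicate 1, at -0.10 and -0.06. PSPH, the phosphatase of the last step, had 899, 962 and 977 with the A form, 978, 889 and 864 with the G form, and 1025, 925 and 784 in control cells. Its groups overlapped throughout, with log2 differences from control of 0.05 (SE 0.08, limma adjusted p = 0.841) and 0.01 (SE 0.08, limma adjusted p = 0.962). Without control replicate 1 they were 0.10 with the A form and 0.06 with the G form. The dimmer PSPH probe sets 205194_at and 244819_x_at gave 0.18 and 0.23 with the A form and 0.20 and 0.43 with the G form, and PSAT1's second, 220892_s_at, gave -0.12 and -0.05. Control replicate 1 read 89.2 and 30 at 205194_at and 244819_x_at, against 210.3 to 215 and 57.1 to 62.1 in the other control arrays. Without it 205194_at gave -0.16 with the A form and -0.15 with the G form, 244819_x_at gave -0.04 and 0.15, and 220892_s_at gave 0.04 and 0.11. Between the forms PSAT1 differed by -0.04 (interval -0.38 to 0.31) and PSPH by 0.04 (interval -0.15 to 0.23).

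Leaving out control replicate 1 raised 2 of the 8 genes past the threshold against control, and both were higher with either form. PHGDH was then higher by 0.61 (SE 0.08, 1.53-fold, limma adjusted p = 0.000431) with the A form and by 0.58 (SE 0.08, 1.5-fold, limma adjusted p = 0.000534) with the G form. SFXN3 was higher by 0.34 (SE 0.09, 1.26-fold, limma adjusted p = 0.0307) with the A form and by 0.31 (SE 0.09, 1.24-fold, limma adjusted p = 0.0375) with the G form. Between the forms neither was past the threshold in the same fit (log2 0.03 each, limma adjusted p = 0.849 for PHGDH and 0.876 for SFXN3). In that fit 13.3% of all genes were past the threshold for the A form against control, 17% for the G form against control and 9.68% between the forms. The comparisons with control share the same control arrays, and without replicate 1 they rest on 2 of them.

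**Figure D4:**
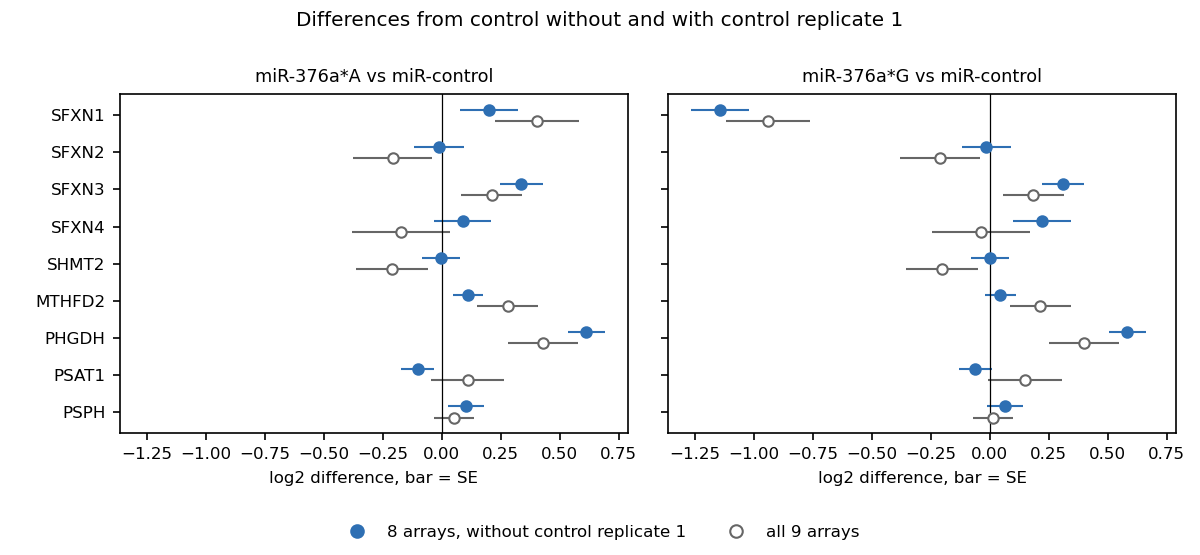
Log2 differences from control of the 9 genes, with bars of 1 SE, from the 8 arrays left without control replicate 1 (filled) and from all 9 arrays (open). Without that array SFXN2 and SHMT2 lie close to 0, and PHGDH reaches 0.61 and 0.58.

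The genes around this route were followed in 7 lists, chosen by function. Over all genes 1.95% were called higher and 1.38% lower for the A form against control. For the G form against control these shares were 2.5% and 2.12%, and for the A form against the G form 1.39% and 1.24%. Calls in the lists are read against these shares. Of the other one-carbon and folate genes, 12 of 19 were measured, and 1 rose and 0 fell with the A form against control, with 0 called in the remaining comparisons. That gene was TYMS, thymidylate synthase, with 1486, 1489.9 and 1612 with the A form, 1450.1, 1372 and 1442 with the G form and 1488, 1256 and 1188 in control cells. Its rise of 0.24 (SE 0.05, limma adjusted p = 0.0365) did not pass when any array other than G-form replicate 3 or control replicate 1 was left out (7 of 9, adjusted p = 0.0726 to 0.177). MTR, methionine synthase, differed by -0.27 and -0.26 from control with the A and the G form, and by -0.19 and -0.17 without control replicate 1, and did not pass. In limma 2 of the 12 had an unadjusted p below 0.05 for the G form against control, and 0 between the forms.

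Of the genes that use serine or cleave glycine, 15 of 18 were measured. PTDSS1, phosphatidylserine synthase 1, which puts serine into phospholipid, was the 1 gene called, lower with the A form against control and against the G form. Its signals were 936, 894 and 999 with the A form, 1399, 1337 and 1405 with the G form, and 1563, 1302 and 1355 in control cells. The A-form arrays lay below the other 6, and the G-form arrays overlapped the control arrays. PTDSS1 fell by 0.56 on the log2 scale against control (SE 0.07, 1.47-fold, limma adjusted p = 0.00133) and by 0.57 against the G form (SE 0.07, 1.49-fold, limma adjusted p = 0.00147). With the G form it differed from control by 0.01 (interval -0.14 to 0.16); in that comparison 0 of the 15 were called in limma and 1 had an unadjusted p below 0.05. Both PTDSS1 calls held under all 20 alternatives tried. GLYCTK, glycerate kinase, differed by 0.47 between the G form and control (limma adjusted p = 0.123), and by 0.37 without control replicate 1 (limma adjusted p = 0.0924). CTH, cystathionine gamma-lyase, differed by -0.43 between the forms (limma adjusted p = 0.474, and 0.0157 without control replicate 1). Leaving out that control array changed only the shared spread here, not the difference.

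Of the genes for amino acid transport into cells, 8 of 10 were measured. Against control 2 fell and 0 rose with the A form, 1 fell and 0 rose with the G form, and 1 was lower and 0 higher with the A form than with the G form. Over all genes 1.38%, 2.12% and 1.24% were lower in these comparisons. Without control replicate 1, 1 rose and 2 fell with the A form against control, and 0 rose and 2 fell with the G form. In that fit 13.3% and 17% of all genes were past the threshold. SLC38A1, a carrier of neutral amino acids such as glutamine, had 526, 544 and 574 with the A form, 779, 721 and 776 with the G form, and 1339, 929 and 1006 in control cells. The 3 groups did not overlap, and the G form lay between the others. It fell by 0.95 (SE 0.09, 1.93-fold, limma adjusted p = 0.000434) with the A form and by 0.48 (SE 0.09, 1.39-fold, limma adjusted p = 0.0176) with the G form against control. Between the forms the difference was -0.47 (SE 0.09, limma adjusted p = 0.025). Its other probe sets, 224579_at and 224580_at, gave -0.90 and -0.47 with the A form and -0.36 and -0.30 with the G form against control, and -0.54 and -0.17 between the forms. The first call held under all 20 alternatives. The second was lost without any 1 of the 3 G-form arrays (adjusted p = 0.0564 to 0.0944), and the third without any 1 of the 6 arrays compared (adjusted p = 0.0919 to 0.131).

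SLC7A11, the cystine carrier that exports glutamate, had 407, 419.5 and 402 with the A form, 525, 539 and 570.5 with the G form, and 523, 750.2 and 775 in control cells. Its A-form arrays were the lowest 3, and control replicate 1 lay at the level of the G-form arrays. It fell by 0.73 (SE 0.13, 1.66-fold, limma adjusted p = 0.0147) with the A form against control. Its other probe sets, 217678_at and 207528_s_at, gave -0.59 and -0.32, and without control replicate 1 -0.81 and -0.10. The call was lost without any 1 of the 3 A-form arrays or control replicate 2 (adjusted p = 0.0511 to 0.083). Against control the G form differed by -0.34 (limma adjusted p = 0.211), and without control replicate 1 by -0.51 (limma adjusted p = 0.000975). In that fit 217678_at gave -0.50 and 207528_s_at 0.06 with the G form.

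**Figure D5:**
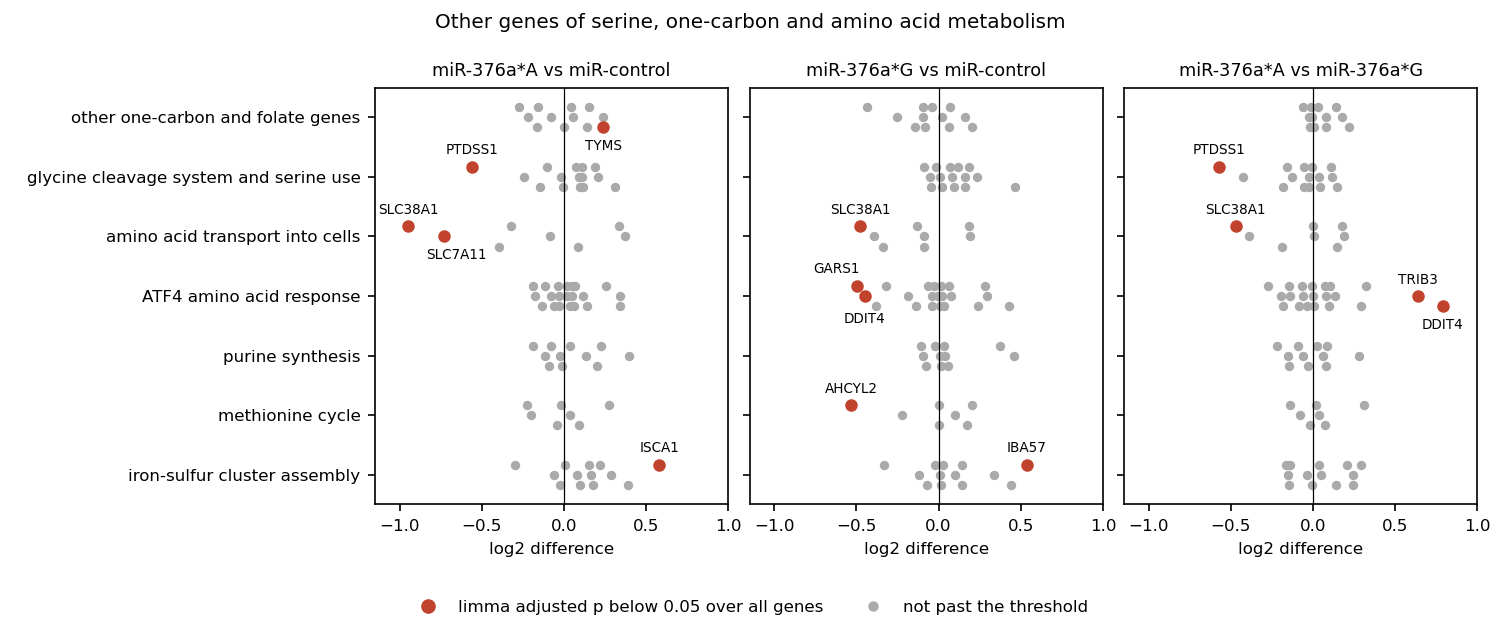
Log2 differences of the measured genes of the 7 lists in the 3 comparisons, each point a gene at its brightest probe set; red points are past the threshold over all genes. SLC38A1 is low in all 3 panels and PTDSS1 in the panels with the A form. TRIB3 and DDIT4 are high with the A form against the G form. The red point of IBA57 is a description.

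ATF4 is the transcription factor that turns on serine synthesis and amino acid transport genes when amino acids run short. All 21 genes of its response list were measured. For the A form against the G form 2 were higher and 0 lower, for the G form against control 2 fell and 0 rose, and for the A form against control 0 were called in limma, with 3 at an unadjusted p below 0.05. Over all genes 1.39% were higher between the forms and 2.12% lower with the G form against control. Without control replicate 1, 2 rose and 4 fell with the G form against control, and 2 rose and 0 fell with the A form. In that fit 17% and 13.3% of all genes were past the threshold. DDIT4, an inhibitor of mTORC1 signalling, had 1060, 1136 and 1271 with the A form, 703, 622 and 639.5 with the G form, and 801, 971 and 881 in control cells. Its groups did not overlap and stood in the same order as those of SFXN1. DDIT4 was higher by 0.79 (SE 0.09, 1.73-fold, limma adjusted p = 0.00161) with the A form than with the G form, under all 20 alternatives. It fell by 0.45 (SE 0.09, limma adjusted p = 0.0248) with the G form against control, with an adjusted p of 0.0591 with the replicate number as a block. That call was also lost without A-form replicate 2, any 1 of the 3 G-form arrays, control replicate 2 or control replicate 3 (adjusted p = 0.0592 to 0.115).

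TRIB3, a pseudokinase induced by ATF4, had 274, 277 and 289 with the A form, 179, 166 and 181 with the G form, and 235, 228 and 226 in control cells. At its brightest probe set these groups were apart in the same order. TRIB3 was higher by 0.64 (SE 0.10, 1.56-fold, limma adjusted p = 0.00849) with the A form than with the G form, and the call was lost without A-form replicate 2 or 3 or G-form replicate 2 (adjusted p = 0.0575 to 0.0658). Its second probe set, 1555788_a_at, gave 0.39 between the forms, and 0.42 and 0.03 against control with the A and the G form. There the G form was thus not below control with all arrays. Without control replicate 1 the brightest differed from control by 0.32 with the A form (limma adjusted p = 0.0249). With the G form it was -0.32 (limma adjusted p = 0.0208). The second probe set then gave 0.36 and -0.03. GARS1, glycyl-tRNA synthetase, had 1485, 1427 and 1651 with the A form, 1198, 1109 and 1244 with the G form, and 2301, 1507 and 1636 in control cells. It fell by 0.50 (SE 0.07, 1.41-fold, limma adjusted p = 0.00428) with the G form against control, and without normalization between arrays or with arrays centred on their medians its adjusted p was 0.0616 and 0.0727. ATF4 itself, at 811 to 829 with the A form, 829 to 959 with the G form and 772 to 970.4 in control cells, differed by -0.08 and 0.07 from control (-0.02 and 0.12 without control replicate 1) and by -0.14 between the forms, and did not pass.

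Of the purine synthesis genes 11 of 12 were measured and 0 were called in limma in any comparison, with 0, 0 and 1 at an unadjusted p below 0.05 for the A form against control, the G form against control and the A form against the G form. The largest differences were those of PRPS2 (0.39 and 0.46 from control), PFAS (0.37 with the G form) and PPAT (0.28 between the forms). Control replicate 1 was low in PRPS2 (165, against 320.2 and 374) and PFAS (140.3, against 335 and 325). With it left out PRPS2 differed from control by 0.10 and 0.16 with the A and the G form, and PFAS by 0.03 with the G form. PPAT then passed between the forms (0.28, SE 0.06, limma adjusted p = 0.00967), where with all arrays it did not (SE 0.12, limma adjusted p = 0.401). Leaving out a control array changed only the shared spread there, not the difference. For the G form against control PPAT then differed by -0.23 (limma adjusted p = 0.0321). Of the methionine cycle genes 7 of 9 were measured, and AHCYL2, a relative of the enzyme that splits S-adenosylhomocysteine, fell by 0.53 with the G form against control (SE 0.11, limma adjusted p = 0.0275). In the remaining comparisons 0 of the 7 were called in limma, with 1 at an unadjusted p below 0.05 in each. AHCYL2 signals were 188, 164 and 149.9 with the A form, 143, 133 and 122 with the G form, and 176, 207 and 208 in control cells. With the replicate number as a block its adjusted p was 0.0643, its second probe set gave 0.05, and without 1 of 6 arrays (A-form replicate 2, any G-form array, control replicate 2 or 3) the call was lost (adjusted p = 0.0608 to 0.127).

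Iron-sulfur cluster assembly, which SFXN4 serves, had 13 of 16 genes measured. ISCA1, a cluster carrier, had 633, 679 and 672 with the A form, 559.7, 569 and 544 with the G form, and 316, 497 and 482 in control cells. It rose by 0.58 with the A form against control (SE 0.13, limma adjusted p = 0.0467) at its brightest probe set. Its other probe sets, 209273_s_at and 221425_s_at, gave 0.22 and 0.28 (limma adjusted p = 0.611 and 0.49 over all probe sets). The call at the brightest one was lost without any 1 of the 6 miRNA arrays (adjusted p = 0.0825 to 0.194). IBA57, which acts with ISCA1, was dim, at 24.2, 25.6 and 17.1 with the A form, 23.7, 25.1 and 30.2 with the G form and 12.7, 14.4 and 15.6 in control cells. Its control signals lay below the level of the filter, so it passed only through the miRNA groups and its call is a description. IBA57 was higher by 0.54 with the G form than in control cells (SE 0.13). The filter favours such a rise, so no p is given and its place among the calls is no support. Without any 1 array other than control replicate 1 (8 of 9) it was no longer past the threshold, nor with the replicate number as a block. Between the forms 0 of the 13 were called in limma, with 1 at an unadjusted p below 0.05.

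Without control replicate 1 these calls against control kept their sign and stayed past the threshold. With the A form the log2 difference was then 0.24 for TYMS, -0.58 for PTDSS1, -0.87 for SLC38A1, -0.90 for SLC7A11 and 0.41 for ISCA1. With the G form it was -0.39 for SLC38A1, -0.53 for DDIT4, -0.46 for GARS1 and -0.56 for AHCYL2. IBA57, given as a description only, then differed by 0.47 with the G form. Over the 20 alternatives, the A-form calls against control held in 14 for SLC7A11, 6 for ISCA1 and 5 for TYMS. The G-form calls against control held in 18 for GARS1, 14 for SLC38A1, 10 for DDIT4 and 10 for AHCYL2. Between the forms they held in 17 for TRIB3 and 11 for SLC38A1.

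The 5 genes whose profile over the 9 arrays was most like that of SFXN1 were UBP1, ZNF271P, TNFRSF10B, AASDHPPT and AFG3L2. Likeness was the root mean square difference of log2 values after centring each gene on its mean, which was 0.13, 0.18, 0.18, 0.20 and 0.21 for these 5 and 0.64 at the median of all genes. The choice fixes their pattern, so their levels are a description. UBP1, a transcription factor gene, averaged 594 ± 54.1 with the A form, 222 ± 15.9 with the G form and 415 ± 137 in control cells (SD, n = 3 each). Its control replicate 1, at 257, was low as in SFXN1, against 498 and 491 in the other control arrays. TNFRSF10B, a death receptor for TRAIL, averaged 495 ± 30.2 with the A form, 190 ± 11.8 with the G form and 423 ± 56.9 in control cells. AFG3L2, a protease of the inner mitochondrial membrane, averaged 769 ± 35.7 with the A form, 409.7 ± 21.5 with the G form and 709 ± 151 in control cells. ZNF271P averaged 121, 46.6 and 108 over the A-form, G-form and control arrays, and AASDHPPT 866, 460 and 816. Other probe sets of TNFRSF10B (209294_x_at and 210405_x_at) gave 0.05 and 0.19 in log2 between the forms, against 1.31 for the brightest. The values were 0.66 against 1.11 for ZNF271P, 0.44 against 0.89 for AASDHPPT, and 0.46 and 0.01 against 0.89 for AFG3L2. These genes were chosen by their brightest probe set, which favours smaller differences at the others. No trait shared with SFXN1 is read from this. UBP1 had no other probe set past the filter.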

How the data were processed

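The deposited values are linear signal intensities that the authors gave for 54675 probe sets on 9 arrays; the submitters' processing notes name GCOS 1.4.0.036. Their mean after trimming 2% at each end was 100.01 to 100.013 on every array, so the arrays had been scaled alike before deposit and a change common to most transcripts would not be seen. How signals were summarised and freed of background is not given in the sources used here. Detection calls were left aside. Signals were turned into log2(signal + 16), which understates the change of dim genes. The array medians then ranged over 0.2, above the limit of 0.1, and the values were quantile normalized. Probe sets with a mean below the 50th percentile (5.17) were left out, and each gene took its brightest remaining probe set. Symbols came from the platform annotation (41097 probe sets with 1 symbol, 1801 with several, 11777 with none), and both miRNA sequences, matched by name, from RefSeq.

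Groups were compared in R 4.3.3 with limma 3.58.1 (lmFit, eBayes with an intensity trend), all 3 groups in 1 fit, with Benjamini-Hochberg adjustment over all 12505 genes or 27338 probe sets and a threshold of 0.05. The procedure was tested on simulated data. Precision is limited by the 3 arrays per group, for which the smallest exact p is 0.1. The members and lists were chosen with earlier results of these data known. Named list genes are those past the threshold and, where fewer than 2 passed, some of those with the largest differences; SFXN5 and ATF4 are named besides, for their roles, after their values were seen. Same-numbered arrays of miR-376a*G and control deviated together (r of 0.156, 0.187 and 0.125), all over the limit of 0.1 for pairing, though the labels name no shared culture. All values come from the fit without a replicate block. The blocked p stands beside each named gene, other than IBA57, whose call in that comparison it ended. The numbers did not pair the arrays of the other comparisons (r of -0.335, 0.0315 and -0.361 for miR-376a*A and control, and -0.0909, -0.0984 and -0.0313 for both forms). Alternatives were the offset, normalization, filter, averaging of probe sets, the arrays fitted, array weights, the replicate block, the variance trend and leaving out each array. Genes have no coordinates here because no build is named with the files.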

Additional observations from a re-analysis of the deposited data

How the results depend on the processing

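No value changed direction past the threshold under the 20 alternatives. The count of the 9 genes past the threshold for the A form against the G form, 1 with all arrays, was 0 with a mean of each gene's probe sets, and leaving out arrays gave 1 to 1. For the G form against control, also 1, it was 0 with that mean, 0 with only the 6 arrays compared and 3 with array weights, and 0 to 3 leaving out arrays. For the A form against control, 0 with all arrays, it was 1 with arrays centred on their medians, 2 with array weights and 0 to 2 leaving out arrays. Of the 20 probe sets, the count between the forms (1) was 2 with only the 6 arrays compared, 2 with array weights and 1 to 2 leaving out arrays. Against control with the G form (1) it was 0 with median centring, 0 with only 6 arrays, 3 with weights and 0 to 4 leaving out arrays, and with the A form (0) it was 2 with weights and 0 to 3 leaving out arrays. The list genes for the A form against control (5) numbered 3 without normalization, 2 with median centring, 3 with no filter, 3 with a filter at the 25th percentile, 2 with only 6 arrays, 14 with weights, 3 with the replicate block, 3 without the variance trend and 2 to 9 leaving out arrays. Those for the G form against control (5) numbered 2 without normalization, 1 with median centring, 1 with only 6 arrays, 14 with weights, 2 with the replicate block and 1 to 13 leaving out arrays. These 5 include IBA57, which passed the filter only through the miRNA groups. Between the forms (4) the list genes numbered 12 with only 6 arrays, 15 with weights and 2 to 11 leaving out arrays. The highest of each leave-one-out range for the list genes came without control replicate 1. In that fit 13.3% of all genes were past the threshold for the A form against control, where 3.33% were with all arrays. For the G form against control the shares were 17% and 4.62%, and between the forms 9.68% and 2.63%. Shares of all genes under the other settings were not computed, so the changed counts are not read as a result about the 9 genes or the lists. The causes were not tested. The block changed no count of the 9 genes; for the unpaired comparisons it is given only as a setting. SFXN1 kept its sign in all 3 comparisons under all 20 alternatives, between 0.61 and 1.45 for the A form against the G form. Its own difference in these arrays chose it, so this range and the counts of the 9 genes that rest on it are no support. For probe sets near the filter, such as that of IBA57, the offset shrinks the difference (0.54 with 16, 0.23 with 64).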
